A study of Mus musculus with 2 samples.

Results

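The genes described here make, take up and store cholesterol. The list was assembled by gene symbol and holds 35 genes, of the 55536 GENCODE genes in the deposited gene table, and all 35 were matched. By role, 7 belong to the mevalonate and isoprenoid arm of synthesis, 11 to the squalene and sterol arm, 4 to uptake, 7 to storage and intracellular handling, and 6 are regulators. The rule that names them uses no measured value, although the list was drawn up with earlier results of these data known.

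They were measured by total RNA sequencing in the adrenal gland of female mice aged 14 days, from the F1 hybrid strain B6CASTF1/J. Each of the 2 libraries, labelled biological replicate 2 and biological replicate 1, started from 300 ng of RNA, was depleted of ribosomal RNA, received ERCC spike-ins (synthetic control RNAs) and was built with a strand-keeping (directional) kit. No treatment or mutation is named in the labels, so the 2 libraries form 1 group, and the comparison described is replicate 2 over replicate 1. Both carry the same donor identifier, and both library descriptions give 3x females, whereas the tissue label of replicate 2 names 1 numbered female. Whether the libraries come from separate animals was not settled by the labels, so their spread may be partly technical.

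Cholesterol is built from acetyl-CoA through mevalonate, isoprenoids, squalene and a chain of sterol intermediates. When membrane sterol is low, Scap escorts the SREBP factors from the endoplasmic reticulum to the Golgi, where proteases release the part that switches on synthesis and uptake genes, and the Insig proteins hold Scap back when sterol is plentiful. The adrenal cortex uses cholesterol as the precursor of all its steroid hormones. It takes up much of it from high-density lipoprotein through the receptor encoded by Scarb1, and keeps a reserve as cholesteryl ester in lipid droplets.

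The total of expected counts was 33844950 in replicate 2, against 37586172 in replicate 1. Of these, the 35 genes held 92016 counts in replicate 2, against 154475 in replicate 1. Adrenal cortex markers were high in both libraries, with a summed level of 3933 TPM (a level per length, scaled to the library) in replicate 2, against 9087 TPM in replicate 1, and all 8 were lower in replicate 2, by 0.66 to 1.12 on the log2 scale. The 6 chromaffin markers summed to 723 TPM in replicate 2, against 1575 TPM in replicate 1. Hepatocyte markers stood apart. The 10 of them summed to 20541 TPM in replicate 2, against 346 TPM in replicate 1, and each was between 69.3-fold and 103-fold higher in replicate 2. The 6 skeletal muscle markers summed to 490 TPM in replicate 2, against 19.6 TPM in replicate 1, and the 6 T cell markers to 1.86 TPM in replicate 2, against 39.2 TPM in replicate 1. Fat markers summed to 2627 TPM in replicate 2, against 2366 TPM in replicate 1, macrophage markers to 39.4 TPM in replicate 2, against 26.6 TPM in replicate 1, and endothelial markers to 149 TPM in replicate 2, against 191 TPM in replicate 1. No marker of these 8 lists was at 0 counts in either library. In bulk tissue, fewer cells of a type and less RNA per cell cannot be told apart.

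Transcripts for uptake from high-density lipoprotein, for the last step of synthesis and for ester storage were the most abundant of the list. Scarb1 reached 421 ± 274 TPM (SD, n = 2), Dhcr7 162 ± 128 TPM and Soat1 147 ± 73.1 TPM, and these were the 3 genes that averaged 100 TPM or more. Between 10 and 100 TPM stood 20 genes, and 11 stood between 1 and 10 TPM. Npc1l1, the intestinal sterol transporter, was at 0.01 TPM with 1 count in each library. In both libraries 33 of the 35 genes reached 1 TPM. By mean level, 33 lay above the median protein-coding gene, and 12 were at or above percentile 90. Scarb1 alone made up 23.0% of the list's summed TPM in replicate 2, against 34.9% in replicate 1. The list as a whole summed to 986 TPM in replicate 2, against 1763 TPM in replicate 1.

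The order of levels was resolved only in part. Of 34 pairs of neighbours in the order of mean level, 6 had values that did not overlap between the libraries. Scarb1 and Hmgcs1 held the first and the fourth place in each library. Dhcr7 and Soat1 changed places, since Soat1 was ahead of Dhcr7 in replicate 2, with 95.8 against 70.9 TPM, and behind it in replicate 1, with 199 against 252 TPM. Insig2 changed place most, at rank 8 in replicate 2 and rank 23 in replicate 1.

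**Figure D1:**
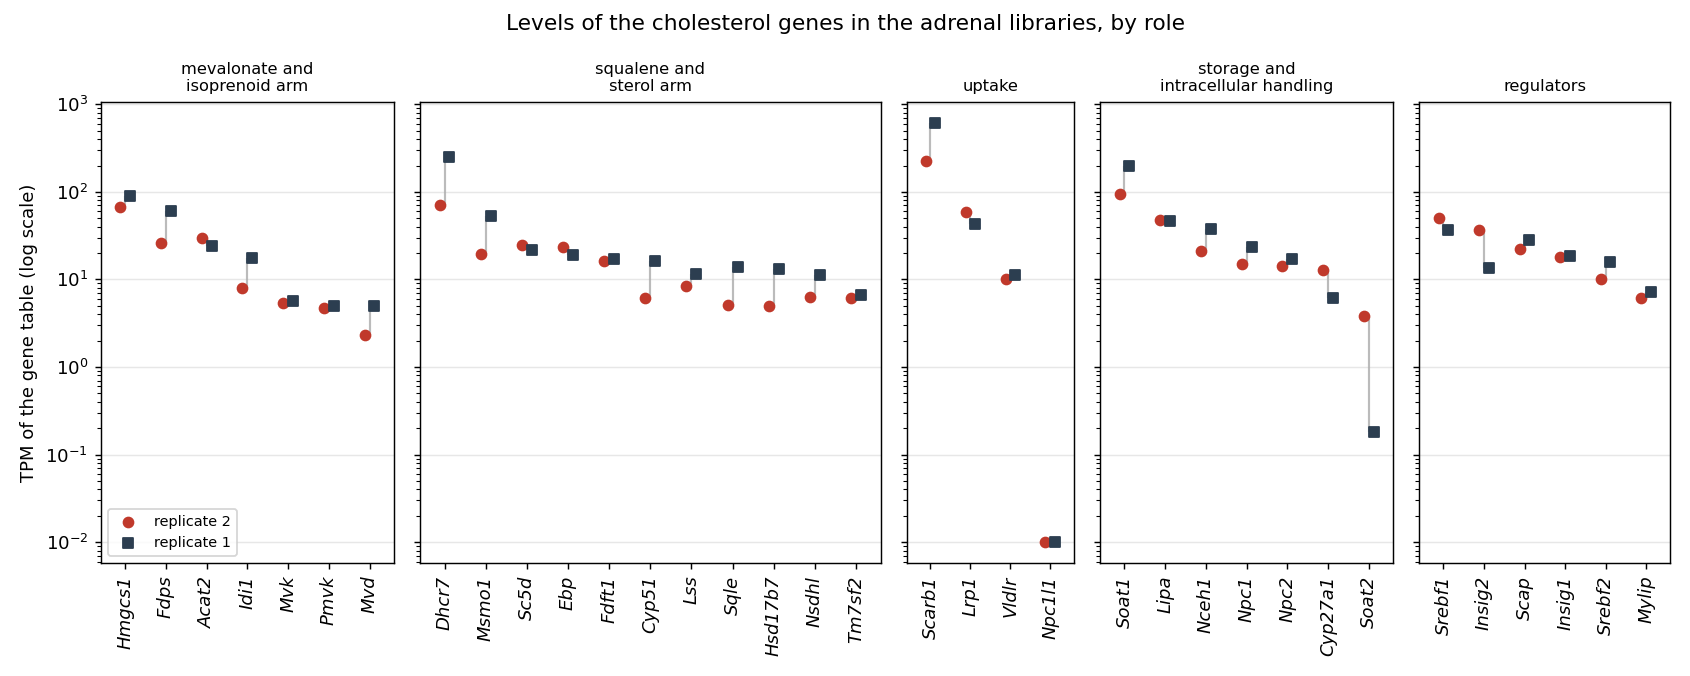
TPM of each gene in replicate 2 (circles) and replicate 1 (squares) on a log axis, in 5 panels by role, each ordered by mean level. Scarb1 lies at the top at 227 TPM in replicate 2, against 615 TPM in replicate 1, Npc1l1 lies at 0.01 TPM in both, and Soat2 has the widest gap, with 3.87 TPM in replicate 2, against 0.180 TPM in replicate 1.

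The libraries were then compared gene by gene. Differences are log2 of replicate 2 over replicate 1, from whole expected counts scaled with edgeR's TMM, with 95% intervals that cover counting error only. With 1 library on each side there is no test and no p-value. A gene with a mean count of at least 20 is called higher or lower where it lies past 1.5-fold. Of the 34 genes with enough counts, 8 were higher in replicate 2 and 10 lower, which is 23.5% and 29.4% of them. Among all 16170 genes with enough counts, 14.4% were higher and 8.7% lower, 23.1% in all. The median difference of the 34 genes was 0.13, beside -0.0021 for all genes. At 2-fold, 4 of the 34 were higher and 5 lower, beside 8.39% and 2.57% of all genes, 11% in all.

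The split depended on the scale. With spike-in or total-count scaling, 5 genes were higher and 13 lower, beside 9.68% higher and 20% lower of all genes with spike-in scaling (29.6% either way) and 8.97% and 24.9% with total counts (33.9% either way). On the log2(TPM + 1) scale 3 were higher and 14 lower, beside 6.7% and 18.2% of all genes (24.9% either way). These scales moved the median of all genes by -0.28 (spike-ins), -0.34 (total counts) and -0.30 (TPM). The deposited files hold, beside the gene table, a transcript table with expected counts (the first) and one with estimated counts from the same reads (the second). Each of the 18 called genes kept its direction in all 6 settings compared, which were TMM, DESeq2 size factors, spike-ins, total counts, the second transcript table and log2(TPM + 1). Size factors, spike-ins and total counts move every gene by the same amount, which was smaller than the 1.5-fold limit. No called gene could change sign under them, and the second transcript table uses the same reads, so this is little support. Of the 16 genes within 1.5-fold, 10 changed sign between settings, and Lss, Nsdhl, Nceh1, Npc1 and Srebf2 (below 0) and Lipa (above 0) kept 1 sign. Calls that ended under spike-in or total-count scaling were those of Acat2, Ebp and Sc5d, and on log2(TPM + 1) also those of Lrp1 and Srebf1. Lower past 1.5-fold with spike-ins or total counts, but not with TMM, were Lss, Nsdhl and Nceh1, and on log2(TPM + 1) these were Nsdhl, Nceh1, Npc1 and Srebf2.

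**Figure D2:**
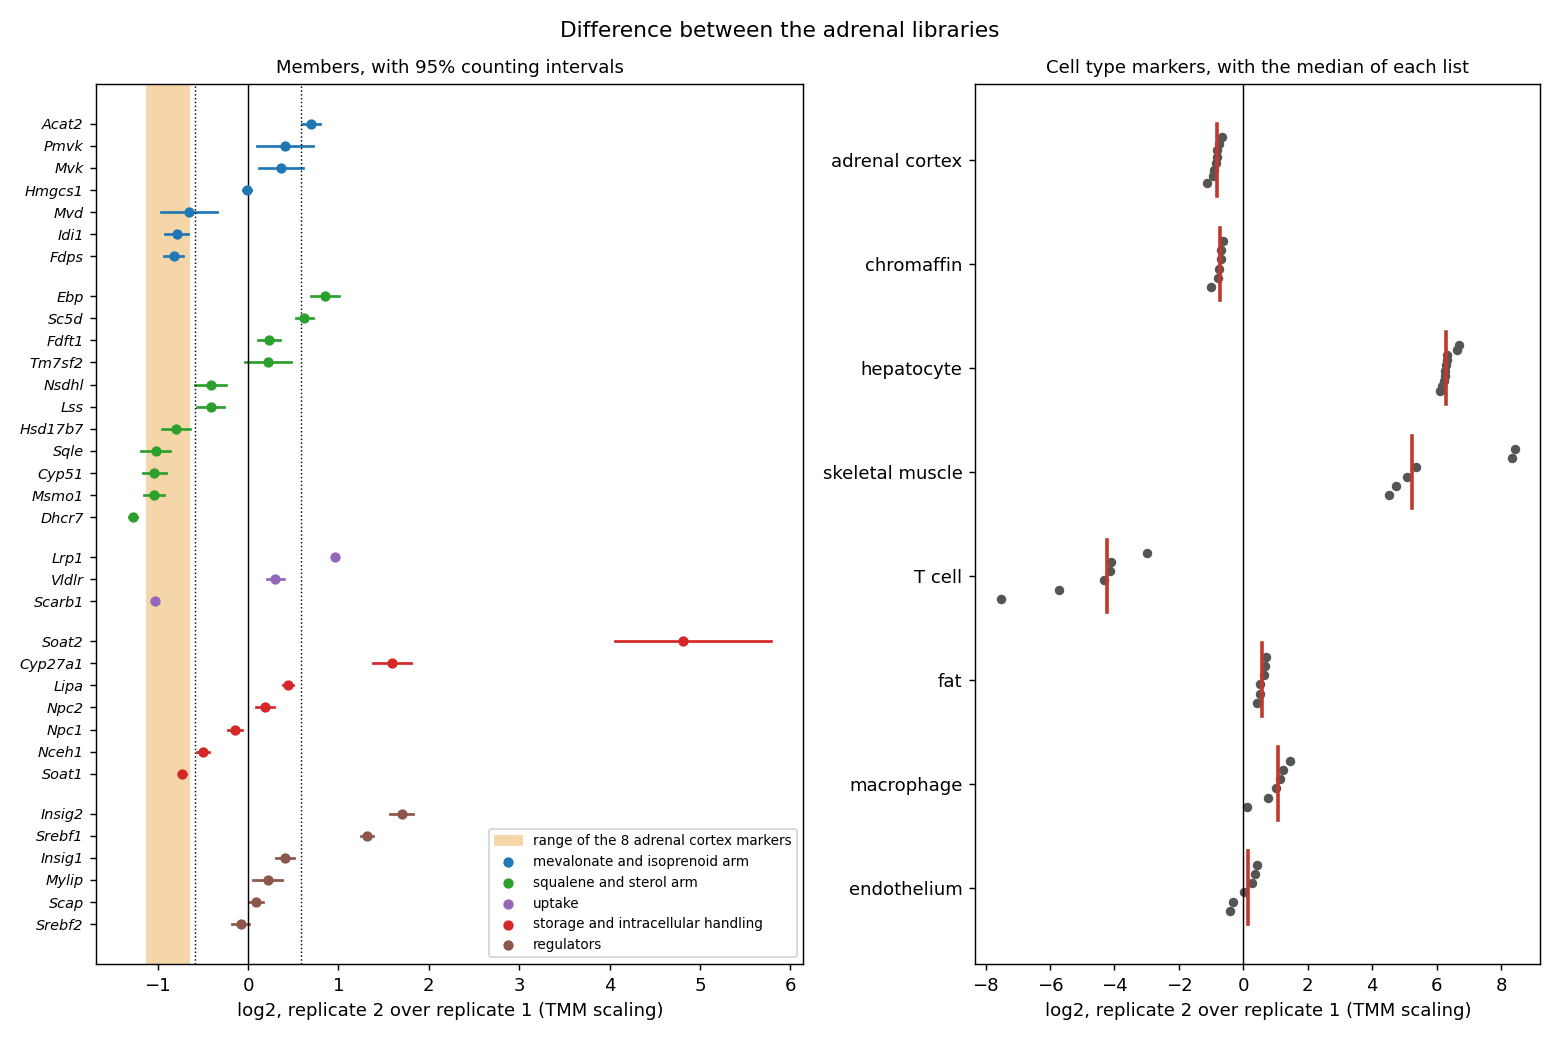
Left, log2 of replicate 2 over replicate 1 for the 34 genes with enough counts, with 95% counting intervals, coloured by role; dotted lines mark 1.5-fold and the band spans the 8 adrenal cortex markers, from -1.12 to -0.66. Right, the same difference for each marker gene of 8 cell types, with the median of each list as a bar, the hepatocyte median lying at 6.29. Of the 34 genes, 8 (23.5%, beside 4.96% of all genes) lie inside the cortex band, all of them called lower, and Soat2 at 4.81 is the only one of the 34 beyond 2 on this axis.

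The mevalonate and isoprenoid arm ran at unequal levels. Hmgcs1, which condenses acetyl-CoA units into the precursor of mevalonate, was the highest of the arm with 67.6 TPM in replicate 2, against 90.3 TPM in replicate 1. Its counts of 7151 and 10104 gave a difference of -0.01 (95% interval -0.05 to 0.04). The difference was above 0 only from the second transcript table (0.026), and below 0 in the other settings compared. Acat2, the thiolase that makes acetoacetyl-CoA for that step, had 29.5 TPM in replicate 2, against 23.9 TPM in replicate 1. It was the 1 gene of the arm called higher, at 0.69 (0.60 to 0.79), a call that ended with spike-ins (0.42), total counts (0.36) and log2(TPM + 1) (0.29). The kinases were low and within 1.5-fold. Mvk, mevalonate kinase, had 5.41 TPM in replicate 2, against 5.63 TPM in replicate 1 (0.36, 0.12 to 0.61). Pmvk, phosphomevalonate kinase, had 4.77 TPM in replicate 2, against 4.93 TPM in replicate 1 (0.41, 0.10 to 0.72).

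The steps after the kinases were lower in replicate 2. Mvd, which decarboxylates mevalonate diphosphate to isopentenyl diphosphate, had 128 counts in replicate 2, against 283 in replicate 1, a difference of -0.65 (-0.97 to -0.35). Idi1, the isomerase of isopentenyl diphosphate, had 724 counts in replicate 2, against 1762 in replicate 1 (-0.79, -0.92 to -0.67). Fdps, which joins the units into farnesyl diphosphate, had 1008 counts in replicate 2, against 2510 in replicate 1 (-0.83, -0.93 to -0.72). So 1 of 7 genes of the arm was higher, 3 were lower and 3 were within 1.5-fold, with a median of -0.01. Among all genes with enough counts, 14.4% were higher and 8.7% lower. The differences of Idi1 and Fdps lay inside the range of the adrenal cortex markers, and the part of the tissue makeup in them was not tested.

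Hmgcs1 carried the 1 match to the sterol element searched, among the 29 genes with a promoter window. Its RefSeq promoter window is shown for that reason, at chr13:119690101-119690400 on the plus strand of GRCm38.p6, 250 bases before and 50 from the start on. The reference is not the sequence of the hybrid mice, whose CAST alleles may differ. Capitals mark the motif TCACNCCAC, which lies 137 bases before the start, and the CCAAT and GGGCGG boxes on either strand.
Hmgcs1 promoter: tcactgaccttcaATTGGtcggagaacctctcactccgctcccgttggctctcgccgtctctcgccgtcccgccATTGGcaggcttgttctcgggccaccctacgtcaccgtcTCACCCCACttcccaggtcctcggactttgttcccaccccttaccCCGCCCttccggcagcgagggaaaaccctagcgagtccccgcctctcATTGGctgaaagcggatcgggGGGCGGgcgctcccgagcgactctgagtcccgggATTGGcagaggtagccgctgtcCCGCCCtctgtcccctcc

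Of the 10 genes called lower, the squalene and sterol arm held 5. Fdft1, squalene synthase, joins farnesyl units and had 16.4 TPM in replicate 2, against 17.2 TPM in replicate 1. Sqle, which adds the epoxide oxygen to squalene, had 5.10 TPM in replicate 2, against 13.9 TPM in replicate 1. With 452 counts against 1291, Sqle differed by -1.02 (-1.18 to -0.87), while Fdft1 differed by 0.23 (0.11 to 0.35), a value whose sign changed with the scaling. Lss, lanosterol synthase, which closes the sterol rings, had 548 counts in replicate 2, against 1026 in replicate 1 (-0.41, -0.57 to -0.26).

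Of the 5 genes for the demethylation steps that follow lanosterol, 3 were lower (beside 8.7% of all genes) and 2 were within 1.5-fold. Cyp51, the lanosterol 14-demethylase, had 679 counts in replicate 2, against 1960 in replicate 1 (-1.04, -1.17 to -0.91). Msmo1, the sterol 4-methyl oxidase, had 19.4 TPM in replicate 2, against 53.5 TPM in replicate 1 (-1.04, -1.16 to -0.93). Hsd17b7, the ketoreductase of these steps, had 490 counts in replicate 2, against 1199 in replicate 1 (-0.80, -0.96 to -0.65). Nsdhl, the decarboxylating dehydrogenase that acts between Msmo1 and Hsd17b7, was within 1.5-fold at -0.41 (-0.59 to -0.24), and it was below 0 in all 6 settings. Tm7sf2, a sterol 14-reductase, had 6.14 TPM in replicate 2, against 6.62 TPM in replicate 1.

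At the last steps the TMM calls went apart. Ebp, which moves the double bond of the B ring, had 824 counts in replicate 2, against 642 in replicate 1, and was higher by 0.85 (0.70 to 1.00). Sc5d, the desaturase after it, had 24.8 TPM in replicate 2, against 21.9 TPM in replicate 1, higher by 0.62 (0.53 to 0.72). Both calls ended under other scales, with Ebp at 0.58, 0.51 and 0.32 and Sc5d at 0.35, 0.28 and 0.17 with spike-ins, total counts and log2(TPM + 1), in that order. Dhcr7 (chr7:143823145-143848410, mm10, plus strand), the reductase of the last intermediate of its branch, had 70.9 TPM in replicate 2, against 252 TPM in replicate 1. With 4904 counts against 16695 it was 2.42-fold lower in replicate 2 (log2 -1.28, -1.32 to -1.23), the lowest value of the 34 genes. It lay below the range of the 8 cortex markers, the lowest of which was Mc2r, the corticotropin receptor, at -1.12. In all, 2 of 11 genes of the arm were higher, 5 were lower and 4 were within 1.5-fold, with a median of -0.41. The shares of all genes were 14.4% higher and 8.7% lower.

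Dhcr7 has annotated starts 6459 bases apart. The downstream group of starts held 4728 of the gene's counts in replicate 2, against 16370 in replicate 1, which is 96.4% and 98.1%. The upstream group held 111 counts in replicate 2, against 157 in replicate 1. By the second transcript table it held 61.6 in replicate 2, against 279 in replicate 1, so its difference between the libraries was not settled. The upstream window held a match to CAAGGTCA, the site recognised by the steroidogenic factor Nr5a1, 52 bases before its start. It was the 1 match among the 29 genes with a promoter window. A window starting between them, with its start at 143823399, held none of the motifs. The downstream window held 2 CCAAT boxes and 3 GGGCGG boxes and no match to CAAGGTCA. The outer windows are shown, since the match lies at the start with few counts: upstream at chr7:143822917-143823216 and downstream at chr7:143829964-143830263, plus strand, GRCm38.p6, with motifs in capitals.
Dhcr7 upstream promoter: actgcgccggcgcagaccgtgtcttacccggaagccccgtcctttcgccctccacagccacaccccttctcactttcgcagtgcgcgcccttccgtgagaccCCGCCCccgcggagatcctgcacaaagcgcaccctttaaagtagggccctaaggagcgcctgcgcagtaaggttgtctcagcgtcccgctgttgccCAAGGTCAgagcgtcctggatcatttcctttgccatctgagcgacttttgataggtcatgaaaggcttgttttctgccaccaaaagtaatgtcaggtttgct
Dhcr7 downstream promoter: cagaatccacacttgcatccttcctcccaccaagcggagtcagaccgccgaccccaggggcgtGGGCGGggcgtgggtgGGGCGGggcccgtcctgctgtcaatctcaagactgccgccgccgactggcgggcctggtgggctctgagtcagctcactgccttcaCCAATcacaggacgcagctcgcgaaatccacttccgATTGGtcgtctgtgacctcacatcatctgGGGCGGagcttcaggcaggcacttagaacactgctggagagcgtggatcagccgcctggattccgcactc

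Uptake genes differed in both directions. Scarb1, the high-density lipoprotein receptor SR-BI (chr5:125277087-125341094, minus strand), had 227 TPM in replicate 2, against 615 TPM in replicate 1. Its counts of 17436 in replicate 2, against 50138 in replicate 1, made it 2.05-fold lower in replicate 2 (log2 -1.03, -1.06 to -1.01). Lrp1, a broad receptor for remnant lipoproteins and protease complexes, had 59.6 TPM in replicate 2, against 42.5 TPM in replicate 1, and was 1.95-fold higher (0.97, 0.93 to 1.00), and at 0.48 on log2(TPM + 1) it was within 1.5-fold. Vldlr, a receptor for triglyceride-rich particles, had 10.04 TPM in replicate 2, against 11.3 TPM in replicate 1 (0.30, 0.21 to 0.39). Of the 3 uptake genes with enough counts, 1 was higher, 1 lower and 1 within 1.5-fold. For all genes the shares were 14.4% higher and 8.7% lower. In the same comparison the 6 macrophage markers had a median of 1.09 and the 6 fat markers one of 0.58. The 10 hepatocyte markers had a median of 6.29 and the 6 skeletal muscle markers one of 5.23. The part of these cell types in the Lrp1 value was not tested.

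Storage genes were led by Soat1 and by the lysosomal lipase. Soat1 (chr1:156424525-156474331, minus strand), the acyltransferase that forms cholesteryl ester in the adrenal cortex, had 95.8 TPM in replicate 2, against 199 TPM in replicate 1. With 7357 and 17115 counts it was 1.66-fold lower in replicate 2 (-0.73, -0.77 to -0.69), inside the range of the cortex markers. Lipa, lysosomal acid lipase, which frees cholesterol from lipoprotein ester, had 47.1 TPM in replicate 2, against 46.9 TPM in replicate 1 (0.44, 0.38 to 0.50). Nceh1, a neutral ester hydrolase, had 20.9 TPM in replicate 2, against 38.1 TPM in replicate 1, at -0.50 (-0.57 to -0.43), within 1.5-fold with TMM. It was below 0 in all 6 settings, and past 1.5-fold with spike-ins, total counts and log2(TPM + 1). Npc2, which takes cholesterol from the lysosome lumen, had 14.2 TPM in replicate 2, against 17.2 TPM in replicate 1. Npc1, its membrane partner, had 14.9 TPM in replicate 2, against 23.3 TPM in replicate 1, at -0.14 (-0.22 to -0.07).

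Soat2 and Cyp27a1 were higher in replicate 2. Soat2 (chr15:102150526-102163469, plus strand), the acyltransferase form known from liver and intestine, had 269 counts in replicate 2, against 13 in replicate 1. The difference of 28.0-fold (95% interval 16.7 to 55.3, log2 4.81) was the largest of the list. Cyp27a1, the mitochondrial sterol 27-hydroxylase of bile acid synthesis, had 603 counts in replicate 2, against 281 in replicate 1, 3.01-fold higher (log2 1.59, 1.39 to 1.80). Both values lay below the hepatocyte markers, which were between 6.11 and 6.68, and none of the 34 genes lay inside that range. The part of liver RNA in these values was not tested. Among storage and handling genes 2 of 7 were higher, 1 was lower and 4 were within 1.5-fold, with a median of 0.18. Of all genes, 14.4% were higher and 8.7% lower.

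With TMM 2 of the 6 regulators were higher and none lower, beside 14.4% higher and 8.7% lower of all genes. Insig2 (chr1:121304353-121332589, minus strand), an anchor that holds Scap in the endoplasmic reticulum, had 36.6 TPM in replicate 2, against 13.6 TPM in replicate 1, and its 1637 and 708 counts made it 3.25-fold higher in replicate 2 (log2 1.70, 1.57 to 1.83). Insig1, the form that SREBP itself induces, had 17.95 TPM in replicate 2, against 18.3 TPM in replicate 1 (0.41, 0.30 to 0.51). Srebf1 (chr11:60199089-60222581, minus strand), the SREBP gene tied to fatty acid synthesis, had 50.8 TPM in replicate 2, against 36.3 TPM in replicate 1. With 4997 and 2830 counts it was 2.48-fold higher (log2 1.31, 1.24 to 1.38), and at 0.47 on log2(TPM + 1) it was within 1.5-fold. Srebf2, the SREBP gene tied to cholesterol synthesis, had 10.15 TPM in replicate 2, against 15.9 TPM in replicate 1, and differed by -0.08 (-0.18 to 0.01), though at -0.60 on log2(TPM + 1) it was past 1.5-fold. Scap, the sterol-sensing escort, had 22.2 TPM in replicate 2, against 27.9 TPM in replicate 1. Mylip, the ligase that sends lipoprotein receptors to degradation, had 6.18 TPM in replicate 2, against 7.15 TPM in replicate 1. All 10 hepatocyte markers were higher in the same comparison, by at least 6.11, and their part in the Insig2 and Srebf1 values was not tested.

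Read against the tissue markers, 8 of the 34 genes lay in the range of the adrenal cortex. The 8 adrenal cortex markers ran from Mc2r at -1.12 to Cyp21a1 at -0.66. Those in that range were Idi1, Fdps, Sqle, Cyp51, Msmo1, Hsd17b7, Scarb1 and Soat1. They are 23.5% of the 34 genes, beside 4.96% of all genes with enough counts. The range lies wholly past the 1.5-fold limit, and it held 8 of the 10 genes called lower, beside 802 of the 1406 genes called lower among all genes (57.0%). Star, whose protein carries cholesterol into mitochondria, was at -0.94, and Cyp11a1, which cleaves its side chain, at -0.81. The chromaffin markers, from -0.99 to -0.63, covered nearly the same range, so cortex and medulla were not separated by it.

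The other genes of the pathway were taken from a list of 23, all with enough counts. Of these, 5 were higher in replicate 2 and 2 lower, beside the 14.4% and 8.7% of all genes, with a median of 0.06. Among 6 synthesis partners, Por, the electron donor of the P450 steps, was highest in replicate 2 at 68.25 TPM, against 57.7 TPM in replicate 1. It was called higher at 0.91, and its lowest value over the 6 settings was 0.24, within 1.5-fold. Cyb5r3, the reductase that feeds cytochrome b5, had 55.4 TPM in replicate 2, against 74.0 TPM in replicate 1, and Lbr, the other sterol 14-reductase, 8.39 and 11.75 TPM.

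Among 9 further regulators, 2 were higher and none lower, beside 14.4% higher and 8.7% lower of all genes. Nr1h3, the oxysterol receptor LXR alpha, had 847 counts in replicate 2, against 343 in replicate 1 (1.79, 1.61 to 1.98). Its paralogue Nr1h2 had 25.6 TPM in replicate 2, against 26.9 TPM in replicate 1. Erlin1, an endoplasmic reticulum protein of the Insig pathway, was at 0.82, with a lowest value of 0.33 over the 6 settings, within 1.5-fold, and its paralogue Erlin2 was at 0.14. Mbtps1, the Golgi protease that makes the first cut of SREBP, had 24.5 TPM in replicate 2, against 33.0 TPM in replicate 1, and Mbtps2, which makes the next, 4.49 and 7.33 TPM.

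Among 8 uptake and transfer genes, 1 was higher and 2 were lower, beside 14.4% and 8.7% of all genes. Gramd1b, which carries cholesterol from the plasma membrane to the endoplasmic reticulum, had 68.4 TPM in replicate 2, against 167 TPM in replicate 1. Its value of -0.79 lay close to that of Soat1 at -0.73 and of the median cortex marker at -0.83. Lrp8, the apolipoprotein E receptor 2, had 107 counts in replicate 2, against 281 in replicate 1 (-0.90), with a value nearest to 0 over the 6 settings of -0.55, within 1.5-fold. Lcat, the plasma enzyme that esterifies cholesterol on lipoproteins and is made in liver, had 2066 counts in replicate 2, against 47 in replicate 1. Its difference of 5.93 was nearer to the hepatocyte markers than that of any of the 34 genes. Cd36, a fatty acid and lipoprotein receptor, was the highest of this group with 232 TPM in replicate 2, against 242 TPM in replicate 1, and Lipe, which also hydrolyses cholesteryl ester, had 87.6 and 104 TPM.

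Ratios within a library compare levels per length without a scaling between the libraries. Of 12 ratios, the one with the smallest spread between the libraries was Soat1 to Nceh1, an ester-forming enzyme over 1 of the ester hydrolases. Lipe, which also hydrolyses cholesteryl ester, was higher than Nceh1, with 87.6 TPM in replicate 2, against 104 TPM in replicate 1. It was not among the 12 ratios, so they give no balance of ester formation and hydrolysis. Soat1 exceeded Nceh1 4.58-fold in replicate 2, against 5.23-fold in replicate 1 (log2 2.29 ± 0.13, SD, n = 2). Npc2 and Npc1 stood near each other, at a ratio of 0.952 in replicate 2, against 0.739 in replicate 1. Hmgcs1 exceeded Acat2, the enzyme before it, 2.29-fold in replicate 2, against 3.78-fold in replicate 1.

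The ratios that follow had a wider spread. Soat1 exceeded Lipa 2.03-fold in replicate 2, against 4.25-fold in replicate 1. Soat1 exceeded Soat2 24.7-fold in replicate 2, against 1107-fold in replicate 1, where Soat2 rested on 13 counts. Scarb1 exceeded Lrp1 3.81-fold in replicate 2, against 14.5-fold in replicate 1, and Vldlr 22.6-fold in replicate 2, against 54.4-fold in replicate 1. Dhcr7 exceeded Sc5d 2.86-fold in replicate 2, against 11.5-fold in replicate 1. Insig2 stood above Insig1 2.04-fold in replicate 2, whereas Insig1 stood above Insig2 1.35-fold in replicate 1. Srebf1 exceeded Srebf2 5.005-fold in replicate 2, against 2.29-fold in replicate 1. At the squalene step Fdft1 exceeded Sqle 3.22-fold in replicate 2, against 1.24-fold in replicate 1.

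**Figure D3:**
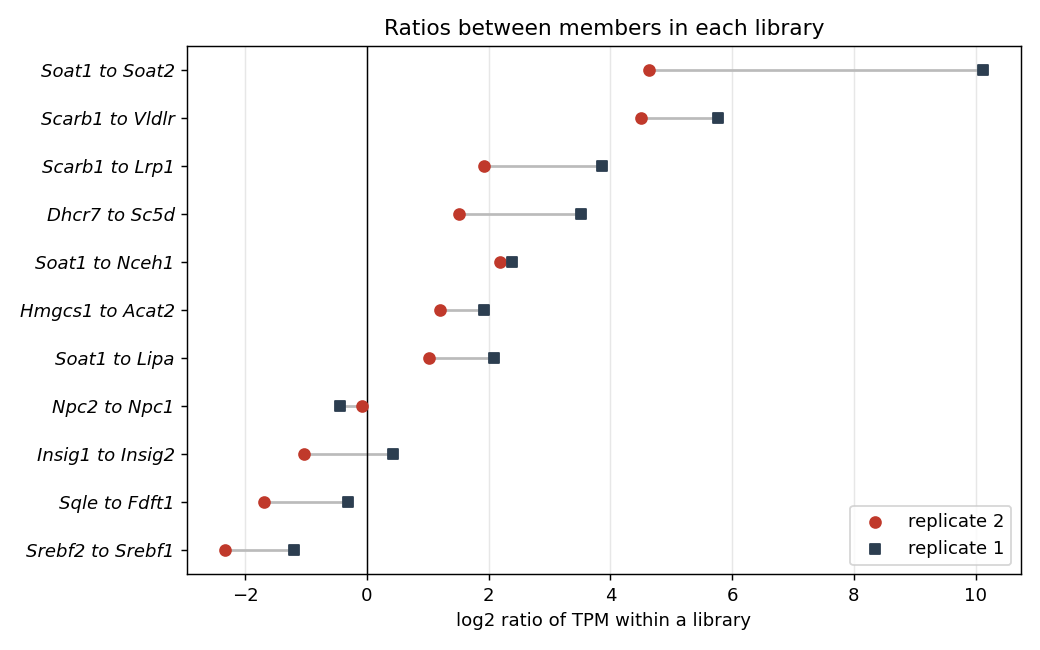
Log2 ratio of the TPM of 2 genes within replicate 2 (circles) and within replicate 1 (squares) for 11 pairs, ordered by the mean. Insig1 to Insig2 is the pair whose circle and square lie on opposite sides of 0, at -1.03 in replicate 2, against 0.43 in replicate 1, and Soat1 to Soat2 has the widest gap.

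The annotation holds 212 transcripts of the 35 genes, of which 113 are protein-coding, and 178 had a count in at least 1 library. The leading transcript of a gene, by its share of the gene's TPM, was protein-coding in 33 of 34 genes and the same in both libraries in 33. It was the same in both transcript tables in 31. The exception in class was Lss, led by the short processed transcript Lss-202 in the first table and by Lss-203 in the second. The first table gave the leading transcript over 50% of its gene in 27 genes and over 90% in 8, among them Sqle-201 and Nsdhl-201.

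Srebf1 is read from 2 promoters that give proteins with different starts, SREBP-1a with a long activating segment and SREBP-1c with a short one. Srebf1-201 codes for the first and Srebf1-207, whose annotated start lies 10139 bases downstream, for the second. The coding starts are shown because their unlike bases separate these forms. Capitals mark the 91 bases particular to Srebf1-201 (chr11:60220453-60220543) and the 19 particular to Srebf1-207 (chr11:60210336-60210354), GRCm38, minus strand, and lower case marks the first 30 shared bases, from the GENCODE transcripts.
Srebf1-201 coding start: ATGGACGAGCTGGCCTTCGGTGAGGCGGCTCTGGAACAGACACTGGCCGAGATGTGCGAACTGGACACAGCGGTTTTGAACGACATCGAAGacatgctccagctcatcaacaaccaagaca
Srebf1-207 coding start: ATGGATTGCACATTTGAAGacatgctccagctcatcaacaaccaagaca
Srebf1-201 had 18.9 TPM in replicate 2, against 12.7 TPM in replicate 1 in the first transcript table, and Srebf1-207 had 14.6 and 4.77 TPM. The first form thus exceeded the second 1.29-fold in replicate 2, against 2.67-fold in replicate 1. In the second table the same ratio was 1.56 in replicate 2, against 1.60 in replicate 1. Both tables put Srebf1-201 ahead, and the ratio differed between the libraries mainly in the first table. Srebf1-207 is annotated with an incomplete 3' end, so its level per length rests on a shortened model. Another annotated coding form with its own start, Srebf1-203, took 697 counts in replicate 2, against 157 in replicate 1 in the first table. That was 14.0% and 5.56% of the gene's counts.

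The windows before both Srebf1 starts are shown because the forms begin at separate starts, at chr11:60220578-60220877 and chr11:60210422-60210721, minus strand, GRCm38.p6. The upstream window held 3 GGGCGG boxes and no CCAAT box. The downstream window held 2 GGGCGG boxes and 1 CCAAT box. Neither held TCACNCCAC.
Srebf1 upstream promoter: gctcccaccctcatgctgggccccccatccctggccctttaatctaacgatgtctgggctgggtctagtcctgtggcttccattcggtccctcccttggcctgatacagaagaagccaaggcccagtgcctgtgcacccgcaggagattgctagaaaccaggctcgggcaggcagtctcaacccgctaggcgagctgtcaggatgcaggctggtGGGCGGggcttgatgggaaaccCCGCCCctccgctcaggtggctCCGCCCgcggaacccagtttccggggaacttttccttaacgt
Srebf1 downstream promoter: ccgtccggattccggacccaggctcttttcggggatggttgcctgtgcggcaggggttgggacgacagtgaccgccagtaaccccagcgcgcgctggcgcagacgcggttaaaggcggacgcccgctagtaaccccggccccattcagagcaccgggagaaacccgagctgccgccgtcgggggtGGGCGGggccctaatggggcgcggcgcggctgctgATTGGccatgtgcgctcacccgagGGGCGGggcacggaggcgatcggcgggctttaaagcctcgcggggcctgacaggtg

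Scarb1 is spliced into SR-BI and SR-BII, which share the lipoprotein-binding part and differ in the cytoplasmic tail. Scarb1-201, with 509 codons, codes for SR-BI and Scarb1-202, with 506, for SR-BII. Their coding ends are shown, with the last 30 shared bases in lower case and the unlike tails in capitals (chr5:125281108-125281233 and chr5:125277749-125277865, GRCm38, minus strand).
Scarb1-201 coding end: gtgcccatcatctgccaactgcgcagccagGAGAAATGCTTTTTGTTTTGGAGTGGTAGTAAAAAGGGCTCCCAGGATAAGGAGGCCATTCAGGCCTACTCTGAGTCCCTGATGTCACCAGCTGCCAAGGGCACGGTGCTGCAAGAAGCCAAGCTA
Scarb1-202 coding end: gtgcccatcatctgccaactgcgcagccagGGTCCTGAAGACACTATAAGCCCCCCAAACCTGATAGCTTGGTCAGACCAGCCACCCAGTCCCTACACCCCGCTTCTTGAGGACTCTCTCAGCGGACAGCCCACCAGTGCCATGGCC
Scarb1-201 had 190 TPM in replicate 2, against 545 TPM in replicate 1, and Scarb1-202 had 21.4 and 35.9 TPM. Scarb1-201 exceeded Scarb1-202 8.86-fold in replicate 2, against 15.2-fold in replicate 1. In the second table it did so 8.52-fold in replicate 2, against 10.9-fold in replicate 1.

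Vldlr-207 and Vldlr-208 differ by a coding stretch of 84 bases that is known to encode the O-linked sugar region of the receptor. It is shown in capitals (chr19:27246593-27246676, GRCm38, plus strand) with 30 bases on each side.
Vldlr-207 coding stretch: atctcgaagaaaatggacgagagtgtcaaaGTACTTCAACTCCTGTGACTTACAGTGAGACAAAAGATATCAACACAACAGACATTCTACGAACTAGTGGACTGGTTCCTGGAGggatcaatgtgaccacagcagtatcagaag
Vldlr-207 had 4.41 TPM in replicate 2, against 4.56 TPM in replicate 1, and Vldlr-208, which lacks the stretch, had 2.90 and 1.93 TPM. The longer form exceeded the shorter 1.52-fold in replicate 2, against 2.36-fold in replicate 1, and by the second table it did so 1.53-fold in replicate 2, against 1.79-fold in replicate 1.

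Soat1 is annotated with starts 7527 bases apart whose leading forms, Soat1-201 and Soat1-207, both have 540 codons. The upstream group of starts took 52.3% of its counts in replicate 2, against 51.0% in replicate 1. The internal start of Soat1-201 took 46.4% in replicate 2, against 46.5% in replicate 1. Per length, Soat1-201 exceeded Soat1-207, the longest upstream form, 3.03-fold in replicate 2, against 3.01-fold in replicate 1, while the gene as a whole was 1.66-fold lower in replicate 2. The main starts of Insig2 took 1399 of its counts in replicate 2, against 670 in replicate 1. A start 4565 bases upstream was given 196 counts in replicate 2, against 0 in replicate 1 by the first table, where 0 allows up to 3 counts, and 0 in both libraries by the second.

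The tables did not name the same form in every gene. Hmgcs1-202 exceeded Hmgcs1-201 6.46-fold in replicate 2, against 5.84-fold in replicate 1 in the first table, and the order was turned round in the second, where Hmgcs1-201 exceeded Hmgcs1-202 6.15-fold in replicate 2, against 4.09-fold in replicate 1. Each of them has 520 codons. Fdps-201 led in the first table and Fdps-203 in the mean of the second. Mvd-201 held 100% of the gene in replicate 2 in the first table and 8.40% in the second, while it held 96.1% and 93.6% in replicate 1.

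**Figure D4:**
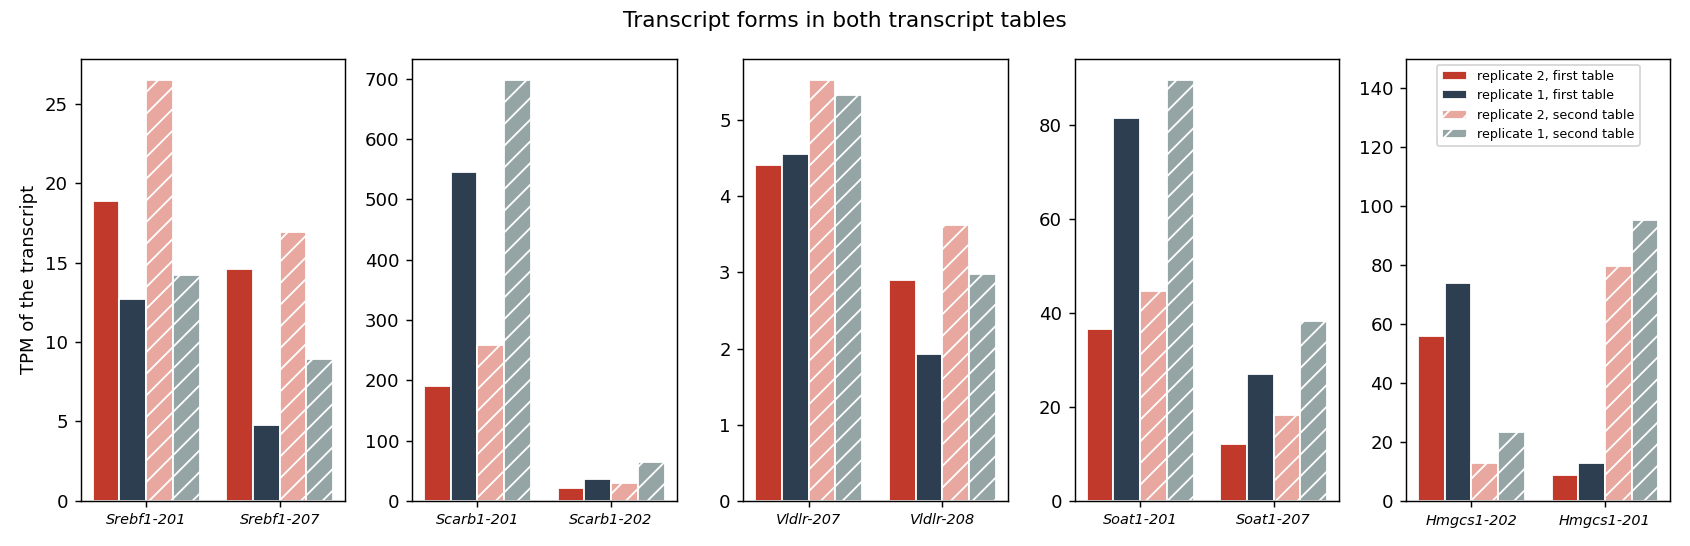
TPM of transcript pairs of 5 genes in replicate 2 (red) and replicate 1 (dark), from the first transcript table (solid) and the second (hatched); each panel has its own axis from 0. Srebf1-207 differs more between the libraries in the first table than in the second, and the Hmgcs1 forms change order between the tables.

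Summed to genes, the second table gave higher levels for all 34 genes, by a median of 0.49 on the log2(TPM + 1) scale, beside 0.41 for all genes. The order of the genes by level was nearly the same, with Spearman correlations across the 34 genes of 0.988 in replicate 2 and 0.984 in replicate 1. These tables come from the same reads, so this is no independent support. Dhcr7 (0.89) and Scarb1 (0.84) were raised most by the second table, and Nceh1 (0.11) and Lrp1 (0.12) least. From counts of the second table, 8 genes were higher and 10 lower. The share of all genes past 1.5-fold was not taken for that table.

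Reads that genes share could move some values. An annotated gene overlapped 17 of the 35. Gm20388, on the opposite strand across the whole of Mvd, had 181 counts in replicate 2, against 605 in replicate 1, more than Mvd itself. Ctsb overlaps the end of Fdft1 by 774 bases and had 12238 counts in replicate 2, against 15103 in replicate 1. Vps51 overlaps Tm7sf2 by 532 bases on the same strand, with 585 counts in replicate 2, against 744 in replicate 1. Akap9 overlaps Cyp51 by 166 bases on the opposite strand, with 2893 counts in replicate 2, against 4771 in replicate 1. Rmc1 overlaps Npc1 by 967 bases (727 counts in replicate 2, against 1286 in replicate 1) and Rai1 overlaps Srebf1 by 109 bases (1262 in replicate 2, against 2084 in replicate 1), both on the opposite strand. Whether the counting used strand is not given in the sources used here, so Mvd, Fdft1, Cyp51, Npc1 and Srebf1 are uncertain in this respect. Gm42633, on the same strand within Scarb1, had 128 counts in replicate 2, against 419 in replicate 1. Acat2, Idi1, Fdps, Fdft1 and Tm7sf2 had fractional expected counts, so some of their reads were split with other entries.

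Promoter windows were found for 29 of the genes, 38 windows in all, in the RefSeq table of GRCm38.p6. The 6 genes without a window, Fdps, Fdft1, Sqle, Scarb1, Npc1 and Soat2, were not searched. Each motif was searched on both strands in 300 bases, and no match overlapped a match to another motif. The CCAAT box was present in 27 of the 38 windows, or 71.1%, beside 37.4% of all 32851 windows. GGGCGG was present in 30, or 78.9%, beside 35.7% of all windows. TCACNCCAC was present in 1 window (2.63%, beside 1.24%) and CAAGGTCA in 1 (2.63%, beside 1.56%). The windows of these genes held a median of 62.2% G and C, beside 52.7% for all windows, and base composition was not matched. Mvk had the most CCAAT boxes with 5, followed by Hmgcs1 and Nsdhl with 4 each, and Srebf2 had the most GGGCGG boxes with 5.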

How the data were processed

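Total RNA sequencing of 2 adrenal libraries of 1 group was analysed from a gene table and 2 transcript tables for each library. The authors deposited expected counts and TPM per gene and, in a first transcript table, the same per transcript with its percent of the gene's TPM. A second transcript table, per the file headers, gives estimated counts with their own TPM. The deposited sample text names assembly mm10 and GENCODE annotation M21, and neither programs nor versions nor the use of strand in counting is given in the sources used here. Entries outside GENCODE and the 96 ERCC spike-ins held 2 counts in replicate 2 and 6 in replicate 1, and ERCC entries held 0.322% and 0.337%. Both were left out of the scaling over genes.

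Expected counts were rounded to whole numbers and scaled with TMM in edgeR 4.0.16 (R 4.3.3). The log2 difference used 0.5 as prior count. Calls needed a mean count of 20 or more and 1.5-fold. Intervals are 95% Clopper-Pearson intervals, which cover counting error only, as PCR reads without molecular identifiers are not independent molecules. A count of 0 allows 3 counts, which is 8.86e-06% of the library in replicate 2 and 7.98e-06% in replicate 1. Starts at most 500 bases apart were joined, a choice made after values were seen, as was the choice of the transcript pairs described. The code was tested on simulated data. Python 3.11.15 with pandas 2.3.3, numpy 2.4.6, scipy 1.17.1 and matplotlib 3.10.9 was used.

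The genes, the lists of 23 pathway genes and of markers, and the motifs were chosen with earlier results of these data known. The text names every gene of the list, pathway genes past 1.5-fold or highest in TPM for their role with their paralogues or partners, markers by list, and the genes of over 100 counts that overlap a member. Of these, 1 pathway gene is not reported here. Alternatives were size factors of DESeq2 1.42.0, scaling by total counts or by spike-ins, a prior count of 2, other minimum counts and folds, log2(TPM + 1), log2(TPM + 0.1), the second transcript table and each library alone.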

Additional observations from a re-analysis of the deposited data

How the results depend on the processing

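Scaling set the medians. The median difference of the 34 genes was 0.13 with TMM, -0.14 with spike-ins, -0.21 with total counts, -0.29 on log2(TPM + 1) and -0.30 on log2(TPM + 0.1). In the same order of settings it was -0.01, -0.28, -0.35, -0.41 and -0.42 for the mevalonate arm (0.026 with the second transcript table), and -0.41, -0.69, -0.75, -0.73 and -0.81 for the sterol arm. It was 0.30, 0.027, -0.037, -0.16 and -0.17 for uptake (0.40 with a minimum mean count of 1, which adds Npc1l1), 0.18, -0.093, -0.16, -0.26 and -0.28 for storage, and 0.31, 0.038, -0.026, -0.11 and -0.12 for regulators. These scales moved all genes too, by -0.28, -0.34, -0.30 and -0.40. The 8 higher genes became 5 with spike-ins or total counts, 3 on both TPM scales and 4 at 2-fold. The 10 lower genes became 13 with spike-ins or total counts, 14 on both TPM scales and 5 at 2-fold. The share of all genes past 1.5-fold was not taken on log2(TPM + 0.1). The median level was 16.8 TPM over both libraries, 14.9 TPM without replicate 1 and 17.2 TPM without replicate 2, and 25.0 TPM in the second table. For regulators it was 21.6 TPM, 20.1 TPM without replicate 1 and 17.1 TPM without replicate 2, and 33.6 TPM in the second table, which gave 20.5 TPM for the mevalonate arm and 25.1 TPM for storage. The log2 ratio of Insig1 to Insig2 averaged -0.30, and was -1.03 without replicate 1, 0.43 without replicate 2 and 0.49 as counts without length correction. The cause of these changes was not tested. DESeq2 size factors, a prior count of 2 and a minimum mean count of 100 gave 8 genes higher and 10 lower again, as TMM did. No paired analysis was possible because the 2 libraries form 1 group. Npc1l1, with 1 count in each library, is below what this depth resolves.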
